A study of Mus musculus with 8 samples.

Results

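Loss of p53 in skin that also lacked pRb was described by setting the 2 microarrays titled pRb-/-;p53-/- (double-null skin) against the 2 titled pRb-/-;p53+/+ (pRb-null skin), over all 22690 probe sets. The arrays were chosen by the genotype in their titles and make up 4 of the 8 arrays of the series. Both groups lacked pRb, and by their titles they differed in p53 alone. The other 4 arrays were 2 of pRb+/+;p53-/- skin (p53-null) and 2 of control skin. They entered the scaling of the deposited values, the estimate of the spread and the last comparison. The RNA on an array came from the whole skin of 3 newborn mice of the inbred FVB strain, combined before hybridization. Per the series title, Rb1 and Trp53 were lost somatically in stratified epithelia. The sources used here do not name the promoter that drove their recombination, so which cells of the tissue kept both genes is not known. Nor do they state that arrays of the same genotype came from different pools, so every p-value reflects array-to-array spread, possibly technical.

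The retinoblastoma protein pRb, the product of Rb1, binds E2F transcription factors and holds back the genes of S phase until cyclin D kinases phosphorylate it. The transcription factor p53, the product of Trp53, is stabilized by DNA damage and oncogenic signals. It switches on arrest genes such as Cdkn1a, which encodes the CDK inhibitor p21, and genes of apoptosis. In newborn mouse skin the hair follicles are growing, and the epidermis renews itself from a basal layer that gives rise to cornified cells.

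The values were deposited as scores, centred on 0 for each probe set and divided so that its SD across the 8 arrays is 1. A difference of 1 is therefore 1 SD of that probe set, and neither a level nor a fold change can be given. A score holds no zero, so the skin could not be checked by the level of its markers. The median score was −0.16 and 0.08 in the double-null arrays, and 0.23 and 0.02 in the pRb-null arrays. Across probe sets the 2 double-null arrays correlated at r = 0.185 and the 2 pRb-null arrays at r = 0.118, and the 4 pairs between the groups lay between −0.355 and −0.140. These are descriptions across probe sets, which are not independent, and the scores of 1 probe set sum to 0 over the arrays. The median gap between the arrays of a group was 0.90 in double-null and 0.89 in pRb-null skin. Xist, which coats the inactive X chromosome, scored −1.57 and −1.50 in double-null and 0.68 and 0.80 in pRb-null skin, a difference of −2.28 ± 0.31 (SE, adjusted p = 0.0956). The Y-linked gene Uty scored 1.15 and 1.51 in double-null and −0.68 and −0.72 in pRb-null skin (2.02 ± 0.36, adjusted p = 0.126). The remaining probe sets of Xist differed by −1.76 and −0.64 and that of Uty by 1.81, on the same sides. The other Y-linked genes were mixed: Kdm5d differed by 1.03, −0.43 and −1.31 and Eif2s3y by 1.22. No sex-linked probe set passed the test (adjusted p from 0.0956), and the part of sex-linked RNA in the results was not tested.

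Rb1, lost in both groups by label, was measured by 1 probe set. It scored −0.55 and −1.90 in double-null and −0.71 and 0.44 in pRb-null skin. The groups overlapped, and the difference of −1.09 ± 0.65 did not pass the test (adjusted p = 0.444). Where this probe set lies with respect to the deletion is not known, so its scores cannot test the genotypes. No score of Trp53 is analysed here.

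Of the 22690 probe sets, 92 (0.405%) passed an adjusted p under 0.05, with 34 (0.15%) higher and 58 (0.256%) lower in double-null than in pRb-null skin. A single gene symbol was carried by 82 of them, which stand for 81 genes, 29 probe sets higher and 53 lower. Without adjustment, a p under 0.05, called nominal from here on, was reached by 1749 higher (7.71%) and 2464 lower (10.9%) probe sets. Both double-null arrays lay above both pRb-null arrays for 5006 probe sets (22.1%) and below them for 6369 (28.1%). The median difference over all probe sets was −0.15, and it became 0.02 when each array's median was set to 0. Each list below stands beside that shift, and its counts stand beside the shares of all probe sets given here. The calls rest on the spread estimated from all 8 arrays: the 4 arrays alone, limma's moderated test and a block for the replicate number each called 0. Leaving out any 1 array left between 0 and 6 calls.

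**Figure D1:**
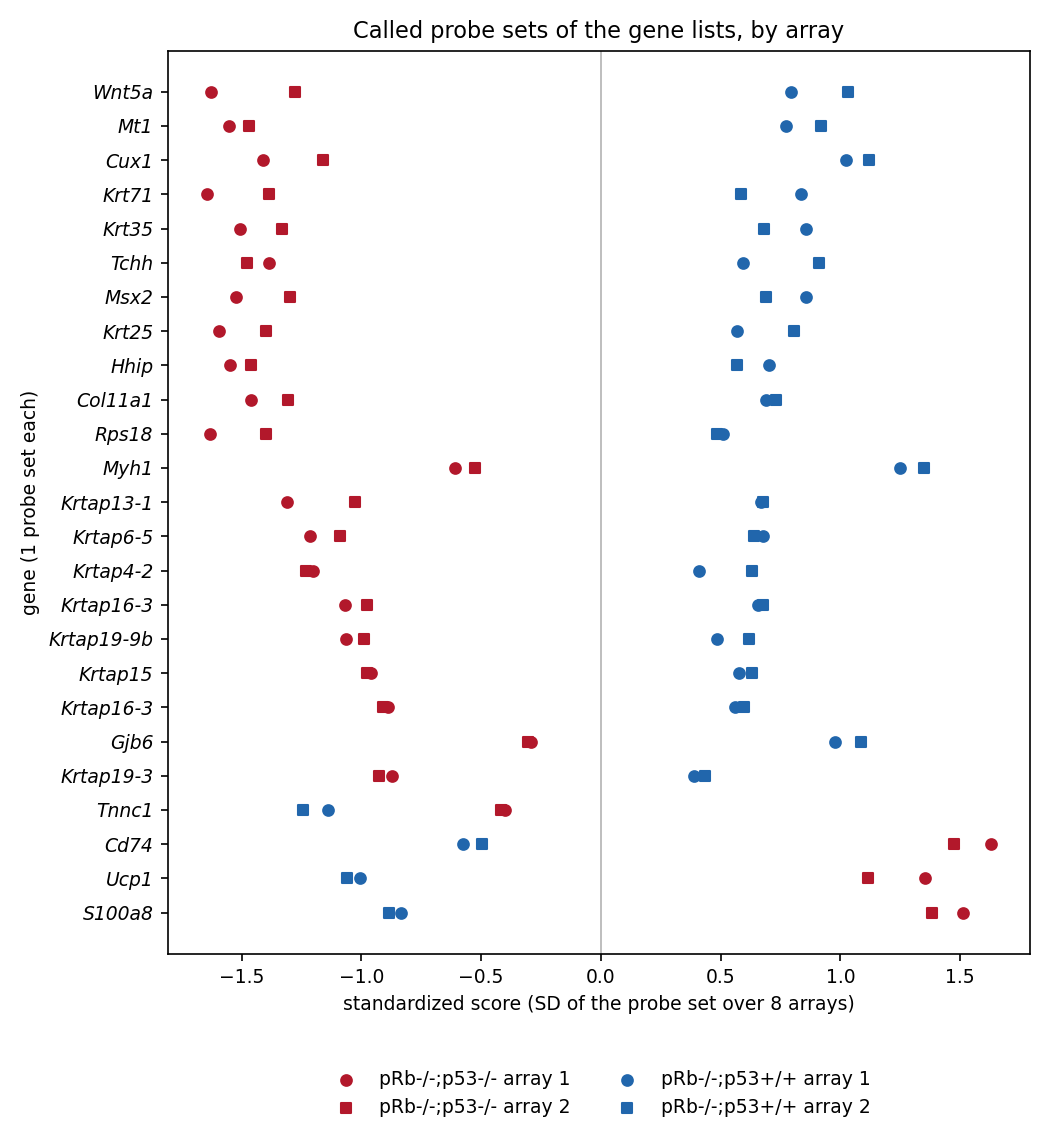
Standardized scores (x axis, in SD of the probe set over 8 arrays) of the 25 probe sets of the gene lists with an adjusted p under 0.05, 1 line each, with red for the double-null and blue for the pRb-null arrays and circles and squares for arrays 1 and 2. On the lower 4 lines (Tnnc1, Cd74, Ucp1 and S100a8) the double-null arrays lie to the right, and on the other lines they lie to the left, with no overlap on any line.

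Genes of the hair follicle made up 16 of the 25 called probe sets that belonged to any list, and all 16 fell. The inner root sheath keratins Krt25 and Krt71 and the keratin-associated proteins Krtap16-3 and Krtap6-5, which cross-link keratin in the shaft, are shown here by the letters around their start because the results turn on them. Each sequence covers 250 bases before and 50 after the annotated start (RefSeq, GRCm38.p6), on the minus strand, with matches on either strand to TATAAA, the core of the TATA box, and to CTTTGA, the core recognized by LEF1 and TCF factors of the Wnt pathway, in capitals.
Krt25 (chr11:99322902-99323201, minus strand): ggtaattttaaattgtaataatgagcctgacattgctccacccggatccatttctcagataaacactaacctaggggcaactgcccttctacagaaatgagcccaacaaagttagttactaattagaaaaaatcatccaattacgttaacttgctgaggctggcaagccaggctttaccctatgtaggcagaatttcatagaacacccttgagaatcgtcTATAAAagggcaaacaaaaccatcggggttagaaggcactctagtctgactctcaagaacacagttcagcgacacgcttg
Krt71 (chr15:101743048-101743347, minus strand): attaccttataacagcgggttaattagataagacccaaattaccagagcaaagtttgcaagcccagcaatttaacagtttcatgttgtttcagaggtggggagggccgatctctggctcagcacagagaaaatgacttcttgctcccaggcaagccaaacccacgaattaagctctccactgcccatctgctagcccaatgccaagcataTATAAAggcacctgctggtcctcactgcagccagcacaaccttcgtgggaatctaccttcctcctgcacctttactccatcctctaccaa
Krtap16-3 (chr16:88962824-88963123, minus strand): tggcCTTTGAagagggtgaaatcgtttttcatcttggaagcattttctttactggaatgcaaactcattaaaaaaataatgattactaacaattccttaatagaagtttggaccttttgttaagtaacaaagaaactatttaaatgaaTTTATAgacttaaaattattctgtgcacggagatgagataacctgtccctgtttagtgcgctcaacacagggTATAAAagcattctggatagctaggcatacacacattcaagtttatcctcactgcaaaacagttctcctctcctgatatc
Krtap6-5 (chr16:89047850-89048149, minus strand): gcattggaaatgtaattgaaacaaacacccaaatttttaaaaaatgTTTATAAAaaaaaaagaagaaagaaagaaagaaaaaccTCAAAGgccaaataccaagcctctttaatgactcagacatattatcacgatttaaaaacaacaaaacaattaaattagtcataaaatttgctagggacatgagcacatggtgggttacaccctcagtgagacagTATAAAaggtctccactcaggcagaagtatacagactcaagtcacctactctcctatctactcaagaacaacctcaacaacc
TATAAA began 30 bases before the start in Krt25, 40 in Krt71 and 30 in Krtap16-3. It was found in 9 of 16 promoters of the hair keratin list (56.2%) and 17 of 23 of the keratin-associated proteins (73.9%), against 9.81% of the promoters of all genes measured and 13.6% of all promoters in the table. CTTTGA was found in 5 (31.2%) and 8 (34.8%) of the same promoters, against 13% and 16%. Neither motif was particular to the hair lists. TATAAA was found in 44.1% of the promoters of the cornified envelope list, 43.5% of the alarmin list and 35.7% of the mast cell list. In other lists its share was as low as 0% (lipid barrier). CTTTGA was found in 62.5% of the MHC class II promoters, 33.3% of the lymphocyte ones and 0% of the nerve ones. The 2 motifs share no letters at a match, except that TATAAA and its reverse overlap once in Krtap6-5. A match is a description of letters and not a site.

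Of the 22 probe sets for keratins of the shaft and root sheath, trichohyalin, peptidylarginine deiminases and the factors Trps1 and Gata3, 4 fell and 21 were nominally lower, with a median difference of −1.86. Krt35, a keratin of the shaft, scored −1.51 and −1.33 in double-null and 0.86 and 0.68 in pRb-null skin (−2.19 ± 0.10, adjusted p = 0.0284). Krt25 scored −1.59 and −1.40 in double-null and 0.57 and 0.81 in pRb-null skin (−2.18 ± 0.13, adjusted p = 0.0409). Krt71 scored −1.64 and −1.39 in double-null and 0.83 and 0.58 in pRb-null skin (−2.22 ± 0.14, adjusted p = 0.0428). In each of these keratins both double-null arrays lay more than 1 SD below both pRb-null arrays. They were picked by a small p, which favours such a gap, and 28.1% of all probe sets lay below by any amount. Tchh, which encodes trichohyalin, the matrix protein of the inner root sheath, scored −1.38 and −1.48 in double-null and 0.59 and 0.91 in pRb-null skin (−2.18 ± 0.14, adjusted p = 0.0428). The 1 member with the opposite sign was Krt84, named after its values were seen, which scored 0.51 and 1.64 in double-null and −0.32 and −0.56 in pRb-null skin (1.52 ± 0.53, adjusted p = 0.26).

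The keratin-associated proteins, small cysteine-rich or glycine-rich proteins of the shaft, were measured by 28 probe sets of 24 genes. Of these probe sets 8 fell, 22 were nominally lower and 1 nominally higher, and the median was −1.47. Krtap16-3 fell by both of its probe sets. The first scored −0.89 and −0.91 in double-null and 0.56 and 0.60 in pRb-null skin (−1.48 ± 0.03, adjusted p = 0.0106). The second scored −1.07 and −0.98 in double-null and 0.66 and 0.68 in pRb-null skin (−1.69 ± 0.06, adjusted p = 0.0284). The arrays of each genotype lay close together in both. Krtap6-5 scored −1.21 and −1.09 in double-null and 0.68 and 0.64 in pRb-null skin (−1.81 ± 0.06, adjusted p = 0.0284). Krtap19-9b (−1.58 ± 0.06) and Krtap15 (−1.57 ± 0.08) fell as well. Krtap19-3, Krtap13-1 and Krtap4-2, named after their values were seen, fell by 1.31 to 1.84. Members of this family are similar in sequence, so probes may be shared between genes and single members are uncertain. The smallest p of all probe sets belonged to Gprc5d, a receptor that the follicle makes where hard keratin forms, also named after its values were seen. It scored −1.13 and −1.16 in double-null and 0.70 and 0.69 in pRb-null skin (−1.84 ± 0.03, adjusted p = 0.0056).

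Regulators of the follicle lay on both sides of 0. Of 79 probe sets of 46 genes, 4 fell and 0 rose, 22 were nominally lower and 6 nominally higher, and the median was −0.77. Hhip, a surface protein that binds Hedgehog ligands and is itself a Hedgehog target, scored −1.55 and −1.46 in double-null and 0.70 and 0.57 in pRb-null skin (−2.14 ± 0.12, adjusted p = 0.0381), while its other probe set differed by −0.35. Msx2, a homeobox factor of the hair matrix, scored −1.53 and −1.30 in double-null and 0.86 and 0.69 in pRb-null skin (−2.18 ± 0.13, adjusted p = 0.0421). The called probe set of Cux1, a homeobox factor of the inner root sheath, fell by 2.35 (SE 0.16, adjusted p = 0.0442), and its other 5 probe sets were also lower, between −2.24 and −0.68. Wnt5a, a Wnt ligand of the dermal papilla and follicle, fell by 2.36 (SE 0.17, adjusted p = 0.0456), whereas its other probe set differed by −0.60. Sox9, the factor of the outer root sheath and follicle stem cells, was lower by both of its probe sets, at −1.92 ± 0.25 and −2.27 ± 0.34 (adjusted p = 0.0885 and 0.102). Notch and Frizzled receptors with their ligands and targets had 0 calls in 55 probe sets, 9 nominally lower and 4 nominally higher, and a median of −0.33, which was −0.59 and −0.19 without pRb-null arrays 1 and 2, −0.16 with array medians set to 0 and −0.10 with 1 probe set per gene. The receptor Notch1 was nearest to the threshold, with −1.35 and −1.14 in double-null and 0.53 and 0.74 in pRb-null skin (−1.88 ± 0.15, adjusted p = 0.0521).

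Melanocyte markers, from the pigment cells that sit in the follicle bulb, had 0 calls. Of their 26 probe sets 11 were nominally lower and 1 nominally higher, against 10.9% and 7.71% of all probe sets. In both arrays 18 lay below and 2 above, against 28.1% and 22.1% of all, and the median was −1.42. Dct, an enzyme of melanin synthesis, scored −1.85 and −1.33 in double-null and 0.43 and 0.41 in pRb-null skin (−2.01 ± 0.18, adjusted p = 0.0597). Pmel, the fibre protein of the melanosome, scored −1.86 and −1.33 in double-null and 0.58 and 0.60 in pRb-null skin (−2.19 ± 0.21, adjusted p = 0.062). Tyrp1 (−2.45 ± 0.36, adjusted p = 0.101) and the transporter Slc45a2 (−2.35 ± 0.38, adjusted p = 0.112) lay on the same side. FVB mice are albino, and these RNAs are those of the pigment machinery and not of pigment itself. In bulk tissue fewer cells of a type and less RNA per cell cannot be told apart, which holds for every list of cell type markers here.

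Genes of the cell cycle lists did not pass the test individually, and most of these lists lay below the median of all probe sets. The list of G1 cyclins, their kinases and CDK inhibitors had 29 probe sets with 0 calls, 11 nominally lower and 2 nominally higher, and a median of −0.73. That median was −0.34 without double-null array 2, −0.36 and −1.11 without pRb-null arrays 1 and 2, −0.39 with quantile normalization and −0.27 with 1 probe set per gene. All 7 probe sets of Ccnd2, which encodes cyclin D2, were nominally lower, with differences between −2.33 and −1.52. The one with the smallest p scored −1.50 and −1.25 in double-null and 1.13 and 0.67 in pRb-null skin (−2.28 ± 0.21, adjusted p = 0.0605). All 3 probe sets of Ccnd1, which encodes cyclin D1, were lower as well, between −2.30 and −1.66, and the best scored −1.82 and −0.98 in double-null and 1.00 and 0.81 in pRb-null skin (adjusted p = 0.0947). These 10 probe sets stand for 2 genes and make up 10 of the 11 nominally lower ones of the list. The probe sets of Cdc25a, the phosphatase that activates CDK2, disagreed, at −2.51 ± 0.38 and 1.68 ± 0.63.

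**Figure D2:**
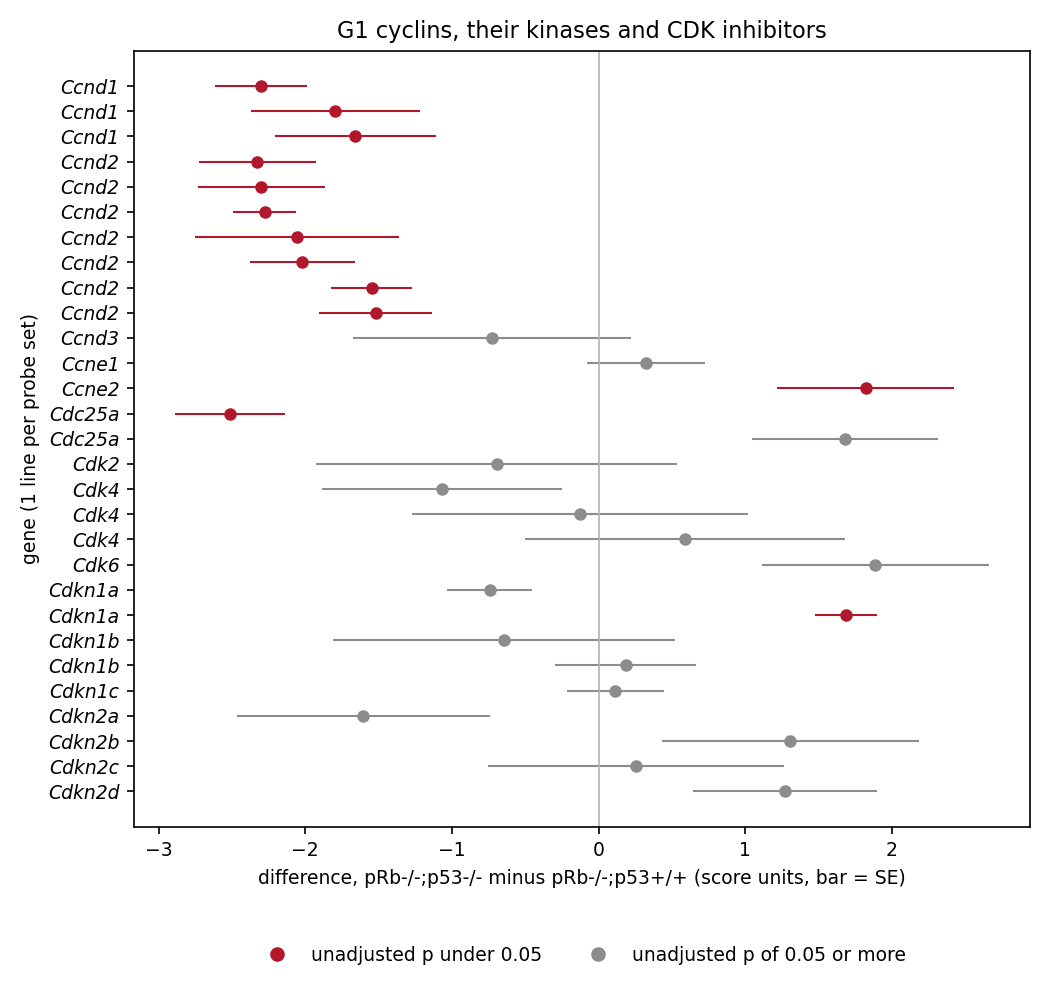
Difference of double-null minus pRb-null skin (x axis, in score units, bar = SE) for the 29 probe sets of G1 cyclins, their kinases and CDK inhibitors, 1 line each, in red where the p before adjustment was under 0.05. The 3 Ccnd1 and 7 Ccnd2 lines all lie between −2.33 and −1.52, and the probe sets of Cdc25a and of Cdkn1a lie on both sides of 0.

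The mitosis list had 97 probe sets of 54 genes with 0 calls, 21 nominally lower and 3 nominally higher, and a median of −0.84, which was −0.55 with quantile normalization. Mki67, the proliferation marker Ki-67, scored −1.46 and −1.55 in double-null and 0.85 and 0.83 in pRb-null skin (−2.35 ± 0.25, adjusted p = 0.0727). Plk1, the kinase that drives entry into and passage through mitosis, scored −1.31 and −1.53 in double-null and 1.00 and 1.22 in pRb-null skin (−2.53 ± 0.31, adjusted p = 0.0851). Incenp, a subunit of the chromosomal passenger complex, scored −1.61 and −1.51 in double-null and 0.98 and 0.55 in pRb-null skin (−2.32 ± 0.29, adjusted p = 0.0872). Of the 3 probe sets of Pttg1, which encodes securin, 1 scored 0.52 and 1.20 in double-null and −1.25 and −1.54 in pRb-null skin (2.26 ± 0.27, adjusted p = 0.0822), and the others differed by −0.91 and −0.11. The kinetochore gene Mis12, outside the list, fell, with −1.42 and −1.34 in double-null and 1.24 and 1.02 in pRb-null skin (−2.52 ± 0.10, adjusted p = 0.0284).

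Genes of DNA replication and S phase, most of them E2F targets, had 90 probe sets with 0 calls, 13 nominally lower and 4 nominally higher, and a median of −0.45, which was −0.23 without double-null array 2 and −0.28 with array medians set to 0. Rfc1, the large subunit of the clamp loader, scored −0.58 and −0.64 in double-null and 1.32 and 1.12 in pRb-null skin (−1.83 ± 0.19, adjusted p = 0.0707). Orc3, a subunit of the origin recognition complex, went the other way, with 1.11 and 1.20 in double-null and −1.53 and −0.69 in pRb-null skin (2.27 ± 0.40, adjusted p = 0.126), and its other probe sets differed by 1.82 and −1.35. The 14 probe sets of pocket proteins and E2F factors had a median of −0.13 with 3 nominally lower and 0 nominally higher. That median changed sign with quantile normalization (0.12) and with array medians set to 0 (0.04), and it was 0.18 without pRb-null array 1 and 0.07 without double-null array 2, against −0.53 without double-null array 1, −0.51 without pRb-null array 2 and −0.52 with 1 probe set per gene. Tfdp1, the dimer partner of E2F factors, scored −1.13 and −1.20 in double-null and 1.09 and 1.67 in pRb-null skin (−2.54 ± 0.33, adjusted p = 0.0887). The activator E2f3 differed by −2.20 ± 0.69 and one probe set of the activator E2f1 by −1.79 ± 0.63, whereas the repressor E2f4 differed by 1.70 ± 0.72.

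Targets of p53 lay on both sides of 0. The 48 probe sets of arrest and stress targets had 0 calls, 2 nominally higher and 3 nominally lower. In both arrays 10 lay above and 10 below. Over all probe sets, 7.71% were nominally higher and 10.9% lower, and 22.1% lay above and 28.1% below. The list had a median of 0.19, which was 0.09 without either double-null array and −0.12 without pRb-null array 2. That median was 0.35 with array medians set to 0 and −0.10 with 1 probe set per gene. Cdkn1a scored 1.67 and 1.42 in double-null and −0.15 and −0.13 in pRb-null skin by one probe set (1.68 ± 0.21, adjusted p = 0.0872). Its other probe set scored −0.40 and −0.09 in double-null and 0.58 and 0.41 in pRb-null skin (−0.74 ± 0.29, adjusted p = 0.292). The 2 probe sets of this p53 target thus disagreed in sign. Ier3, an early-response gene, scored 1.79 and 1.21 in double-null and −0.47 and −0.49 in pRb-null skin (1.98 ± 0.22, adjusted p = 0.0746). Ephx1, the microsomal epoxide hydrolase, scored −0.62 and −1.54 in double-null and 1.38 and 1.30 in pRb-null skin (−2.42 ± 0.33, adjusted p = 0.0943). Aen, a p53-induced exonuclease, was lower by 2 of its probe sets (−2.40 ± 0.53 and −2.18 ± 0.52) and higher at 0.995 ± 0.48 by the remaining one. Mdm2, the ubiquitin ligase that p53 induces and that degrades it, differed by −0.76 ± 0.97 and 0.21 ± 1.25, with overlapping groups in both probe sets.

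The apoptosis targets of p53 and the BCL2 family had 48 probe sets with 0 calls, 2 nominally higher and 6 nominally lower, and a median of −0.28, which was −0.09 and −0.52 without double-null arrays 1 and 2, and 0.02 and −0.48 without pRb-null arrays 1 and 2. Bad, a BH3-only protein, scored 0.99 and 1.20 in double-null and −1.21 and −1.41 in pRb-null skin (2.41 ± 0.28, adjusted p = 0.0797), but its other probe set differed by −1.06. Siva1, a proapoptotic p53 target, was nominally lower by 2 of 4 probe sets (−2.09 ± 0.26 and −2.09 ± 0.42). Mcl1, an inhibitor of apoptosis, differed by −1.89 ± 0.24 by its best probe set (adjusted p = 0.0885), and its other 5 lay between −1.48 and 1.33. The scores of this list thus spread on both sides of 0.

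Among the lists of epidermal genes, the alarmin and wound list stood above the median of all probe sets and the basal list below it. Scores of whole skin do not show which cells made these RNAs. Of 37 probe sets of epidermal alarmins and wound response genes 1 rose, 13 were nominally higher and 3 nominally lower, and the median was 0.65, which was 1.06 without pRb-null array 2. S100a8, a subunit of the alarmin calprotectin, scored 1.51 and 1.38 in double-null and −0.83 and −0.89 in pRb-null skin (2.31 ± 0.08, adjusted p = 0.0284). The cytokine gene Il1f9 scored 1.54 and 1.34 in double-null and −0.14 and 0.19 in pRb-null skin (1.42 ± 0.16, adjusted p = 0.0796). Krt16, a keratin of wounded and hyperproliferating epidermis, scored 1.50 and 1.38 in double-null and 0.33 and 0.07 in pRb-null skin (1.24 ± 0.14, adjusted p = 0.0806). In each of these genes both double-null arrays lay above both pRb-null arrays, as in 22.1% of all probe sets. They were picked by a small p, which favours this. Il33, a cytokine released by damaged epithelium, differed by 2.28 ± 0.27 (adjusted p = 0.0837). The wound keratin Krt17, named after its values were seen, lay on the other side, at −2.13 ± 0.28 and −1.47 ± 0.54 (adjusted p = 0.0912 and 0.274).

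Basal keratinocyte genes had 50 probe sets with 0 calls, 11 nominally lower and 3 nominally higher, and a median of −0.70, which was −0.39 without double-null array 2 and −1.11 with 1 probe set per gene. Cdh3, encoding P-cadherin of the basal layer and hair matrix, scored −1.08 and −0.72 in double-null and 1.67 and 1.26 in pRb-null skin (−2.37 ± 0.21, adjusted p = 0.0597). The receptor gene Egfr scored −1.25 and −1.06 in double-null and 1.36 and 1.06 in pRb-null skin (−2.37 ± 0.22, adjusted p = 0.0605) by the best of 5 probe sets, of which the others differed by −2.05, −0.28, 0.57 and 0.58. Lama5, a laminin chain of the basement membrane, was lower by both of its probe sets (−1.89 ± 0.27 and −2.37 ± 0.39). The suprabasal and cornified envelope genes were mixed. Of 45 probe sets 1 fell, Tchh, which belongs to this list too, 9 were nominally higher and 8 nominally lower, and the median was 0.55, which was 0.30 without pRb-null array 1. Krtdap, a keratinocyte differentiation protein, scored 1.55 and 1.49 in double-null and −0.25 and −0.03 in pRb-null skin (1.66 ± 0.14, adjusted p = 0.0534). Sprr1a, a cornified envelope precursor, went the other way, at −2.27 ± 0.21 (adjusted p = 0.0605).

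Connexins and desmosomal genes, which join keratinocytes, had 1 call in 33 probe sets, 6 nominally lower and 0 nominally higher, and a median of −0.71. The gap junction gene Gjb6 scored −0.29 and −0.30 in double-null and 0.98 and 1.08 in pRb-null skin (−1.33 ± 0.10, adjusted p = 0.0485). Gjb2 differed by −1.83 ± 0.20 (adjusted p = 0.0746). Lipid barrier enzymes had 37 probe sets with 0 calls and a median of −0.17, which was −0.46 and 0.62 without double-null arrays 1 and 2, and −0.38 and 0.12 without pRb-null arrays 1 and 2. Within them, both probe sets of Elovl6, an elongase of long-chain fatty acids, were lower, at −2.06 ± 0.18 and −2.38 ± 0.21 (adjusted p = 0.0597 for each).

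Macrophage and complement genes had the highest median of all lists, 1.50, with 0 calls in 51 probe sets of 32 genes. Of these probe sets 21 were nominally higher and 0 nominally lower, and 35 lay above and 1 below in both arrays. The mean score of the list was 0.98 and 0.69 in the double-null arrays, and −0.38 and −0.48 in the pRb-null arrays. Sirpa, a receptor of myeloid cells for CD47, scored 1.11 and 1.30 in double-null and −1.66 and −1.11 in pRb-null skin (2.59 ± 0.23, adjusted p = 0.0597). Cd163, the haemoglobin scavenger receptor of macrophages, scored 0.94 and 0.59 in double-null and −1.14 and −0.93 in pRb-null skin (1.80 ± 0.20, adjusted p = 0.0746). Msr1, the macrophage scavenger receptor, scored 1.71 and 1.17 in double-null and −0.60 and −0.55 in pRb-null skin (2.01 ± 0.27, adjusted p = 0.0937) by the best of 4 probe sets, of which the others differed by 1.45, 0.14 and −0.81. In the scores given for these genes the groups did not overlap, and the same held for both probe sets of the chemokine gene Ccl9 (1.00 ± 0.25 and 1.05 ± 0.19). Picking genes by a small p favours this, and 22.1% of all probe sets lay above in both arrays. The actin-bundling protein Lcp1 of leukocytes, outside the list and named after its values were seen, rose, with 1.52 and 1.19 in double-null and −0.69 and −0.50 in pRb-null skin (1.95 ± 0.14, adjusted p = 0.0456).

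Genes of antigen presentation by MHC class II had 1 call in 23 probe sets, 5 nominally higher and 1 nominally lower, and a median of 0.99. Cd74, the invariant chain that fills the class II groove, scored 1.63 and 1.47 in double-null and −0.58 and −0.50 in pRb-null skin (2.09 ± 0.09, adjusted p = 0.0284). The class II chains H2-Ea (2.35 ± 0.43) and H2-Aa (1.55 ± 0.29) lay on the same side with an adjusted p of 0.132 and 0.134, but the other 2 probe sets of H2-Ea differed by −1.43 and −0.20. The interferon response list had 48 probe sets with 0 calls, 11 nominally higher and 2 nominally lower, and a median of 0.65, which was 1.17 and 0.32 without double-null arrays 1 and 2, and 1.14 without pRb-null array 1. Both probe sets of the GTPase gene Iigp1 were higher, at 1.73 ± 0.17 and 1.65 ± 0.24 (adjusted p = 0.0629 and 0.101). The antiviral gene Rsad2 scored 1.02 and 1.02 in double-null and −1.27 and −1.55 in pRb-null skin (2.43 ± 0.34, adjusted p = 0.096), while its other probe sets differed by 1.38 and −0.34.

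Mast cell markers had 18 probe sets with 0 calls, 10 nominally higher and 0 nominally lower, and a median of 1.12. Srgn, the granule proteoglycan serglycin, scored 0.74 and 0.74 in double-null and −1.15 and −0.80 in pRb-null skin (1.72 ± 0.16, adjusted p = 0.0622). The mast cell chymase Cma1 scored 0.47 and 0.55 in double-null and −0.95 and −1.29 in pRb-null skin (1.62 ± 0.16, adjusted p = 0.0636). Hdc, which makes histamine, differed by 1.83 ± 0.23 and the carboxypeptidase Cpa3 by 1.33 ± 0.20 (adjusted p = 0.0861 and 0.102). The differences of 14 probe sets were positive and those of 4 negative. The negative ones, named after their values were seen, were Kit by both probe sets (−1.23 and −0.28), Mcpt1 (−1.45) and Fcer1a (−0.36). Of 31 probe sets for T and B lymphocyte markers 1 was nominally higher and 2 nominally lower, and the median was −0.38, which was −0.21 without double-null array 1, −0.14 without pRb-null array 1, −0.22 with array medians set to 0 and −0.16 with 1 probe set per gene.

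Skeletal muscle, which lies beneath the dermis and is no stratified epithelium, had markers on both sides of 0. Of 59 probe sets 1 rose and 1 fell, 20 were nominally lower and 8 nominally higher, and the median was −1.27. Tnnc1, the slow and cardiac troponin C, scored −0.40 and −0.42 in double-null and −1.14 and −1.24 in pRb-null skin (0.79 ± 0.05, adjusted p = 0.0438). Myh1, a fast myosin heavy chain, scored −0.61 and −0.53 in double-null and 1.25 and 1.35 in pRb-null skin by the called probe set (−1.87 ± 0.11, adjusted p = 0.039). Of its other probe sets 1 agreed (−1.87) and 1 was opposite (2.20). Chrnd, the delta chain of the muscle acetylcholine receptor, differed by 2.03 ± 0.20 and the embryonic and atrial myosin light chain Myl4 by 1.55 ± 0.19 (adjusted p = 0.0634 and 0.0848). The mean score of the muscle list was −0.26 and −0.35 in double-null and 0.42 and 0.57 in pRb-null skin, and the part of muscle in the other results was not tested.

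Other cell types had few calls. Adipocyte markers had a median of 0.26 over 37 probe sets, with 10 nominally higher and 2 nominally lower. That median was 0.10 without double-null array 1, 0.09 without pRb-null array 2, 0.43 with array medians set to 0 and 0.12 with 1 probe set per gene. Ucp1, the uncoupling protein of brown fat, rose, with 1.35 and 1.12 in double-null and −1.01 and −1.06 in pRb-null skin (2.27 ± 0.09, adjusted p = 0.0284). The lipase Pnpla2 (1.43 ± 0.11, adjusted p = 0.0504) and the uncoupling protein Ucp3 (1.63 ± 0.14, adjusted p = 0.0568) were on the same side, although the other probe set of Pnpla2 differed by −1.30. The elongase Elovl3 went the other way, at −2.29 ± 0.29 (adjusted p = 0.0885). Adipoq, Cidec, Plin4, Pparg and Lep, named after their values were seen, had overlapping groups and differences between −0.26 and 0.26. Endothelial markers had 0 calls in 28 probe sets, 8 nominally higher and 0 nominally lower, and a median of 0.91, which was 0.46 without pRb-null array 2. The tight junction gene Cldn5 scored 1.49 and 1.41 in double-null and 0.42 and −0.17 in pRb-null skin (1.32 ± 0.27, adjusted p = 0.147). The differences of 17 probe sets were positive and those of 11 negative. The probe sets of Cdh5 disagreed, at 1.51 and −1.07. Those of Egfl7, named after its values were seen, were all lower, between −1.97 and −0.88. Nerve and Schwann cell markers had 38 probe sets with 0 calls, 7 nominally lower and 3 nominally higher, and a median of −0.90, which was −0.60 without double-null array 1, although both probe sets of S100b, a calcium-binding protein of Schwann cells and adipocytes, were higher (2.42 ± 0.30 and 1.64 ± 0.41).

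Dermal fibroblast and collagen genes had a median of 0.32 over 50 probe sets, which was −0.17 and 0.88 without double-null arrays 1 and 2, 0.12 without pRb-null array 1, and 0.51 with quantile normalization. Col11a1, a fibrillar collagen chain, fell, with −1.46 and −1.31 in double-null and 0.69 and 0.73 in pRb-null skin (−2.09 ± 0.11, adjusted p = 0.0365). Col1a1, a chain of the main collagen of the dermis, differed by −2.55 ± 0.31, and its other probe set by 1.9963 ± 0.67, so that its probe sets disagreed in sign. Both probe sets of the microfibril gene Mfap5 were nominally higher (2.29 ± 0.21 and 1.71 ± 0.36). Sebaceous gland markers (median −0.39 over 15 probe sets, −0.71 and 0.18 without double-null arrays 1 and 2) and blood markers (−0.50 over 21, −0.84 without double-null array 1) had 0 calls. Ribosomal protein genes had 1 call in 94 probe sets, 20 nominally lower and 3 nominally higher, and a median of −0.95, which was −0.49 without double-null array 1 and −0.37 with 1 probe set per gene. Rps18 fell by 2.01 (SE 0.15, adjusted p = 0.0456), and its other 5 probe sets differed in the same direction, the one nearest to 0 by −0.94. Subunits of oxidative phosphorylation had 0 calls in 143 probe sets and a median of −0.41, which was −0.23 without pRb-null array 1 and −0.13 with 1 probe set per gene. The array's own control probe sets, 64 in number, had 0 calls, 0 were nominally higher and 7 nominally lower, and the median was 0.07.

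**Figure D3:**
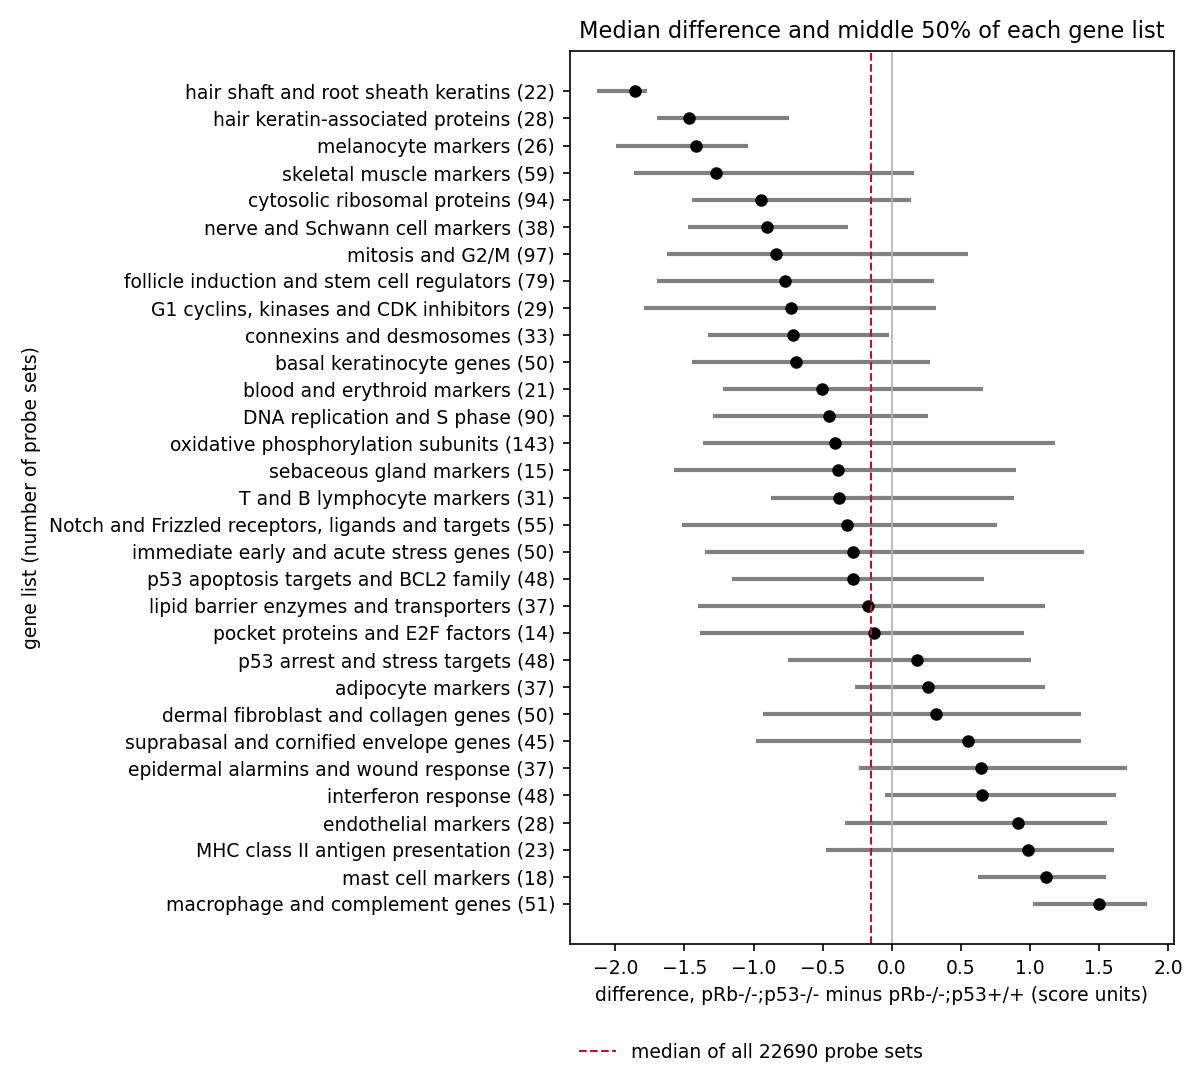
Median difference (points) and middle 50% (grey bars) of double-null minus pRb-null skin in score units (x axis) for 31 gene lists (y axis, with the number of probe sets), and the median of all 22690 probe sets (dashed line at −0.15). The hair keratin list is lowest at −1.86 and the macrophage list highest at 1.50.

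Immediate early and stress genes moved in both directions. Of 50 probe sets 1 fell, 9 were nominally higher and 12 nominally lower, and the median was −0.28, which was −0.13 and −0.49 without pRb-null arrays 1 and 2, −0.13 with quantile normalization and −0.11 with array medians set to 0. The metallothionein gene Mt1, whose product binds zinc, scored −1.55 and −1.47 in double-null and 0.77 and 0.92 in pRb-null skin (−2.36 ± 0.11, adjusted p = 0.0322), while its other probe set differed by −0.21. Mt4, the metallothionein of stratified epithelia, named after its values were seen, fell by 1.92 (SE 0.10, adjusted p = 0.0365). The phosphatase gene Dusp1 scored 1.73 and 1.40 in double-null and −0.42 and −0.40 in pRb-null skin (1.97 ± 0.18, adjusted p = 0.0605). Junb, an AP-1 subunit, scored −0.67 and −0.42 in double-null and 1.18 and 1.16 in pRb-null skin (−1.72 ± 0.16, adjusted p = 0.0605).

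Among all called probe sets with 1 symbol, the 12 that rose most in score had differences between 2.31 and 2.55. Scores are scaled over all arrays of the series, so variation in p53-null and control skin limits the difference a probe set can reach. This order therefore does not rank the size of the change in RNA. Acad8, a mitochondrial dehydrogenase of valine breakdown, scored 0.97 and 1.18 in double-null and −1.58 and −1.37 in pRb-null skin (2.55 ± 0.16), but its other probe set differed by −1.42. Ddr1, a receptor tyrosine kinase for collagen, rose by 2.52 (SE 0.16), and of its other 7 probe sets 4 had the opposite sign. Ndrg1, induced by hypoxia and differentiation, scored 0.99 and 1.02 in double-null and −1.44 and −1.57 in pRb-null skin (2.50 ± 0.14), and its other 4 probe sets were positive. The chemokine gene Cxcl12 rose by 2.33 (SE 0.14), with 0.03 in its other probe set. The glutathione transferase Gsta2 rose by 2.46 (SE 0.12), the farnesyltransferase subunit Fnta by 2.45 (SE 0.16) and the aminopeptidase Dnpep by 2.37 (SE 0.15), the last with all 4 other probe sets positive. Fbxw8, Agpat5, Dusp22 and Prr13 also rose, and S100a8 completed this group.

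The 12 that fell most in score had differences between −2.62 and −2.40, and the same limit from the scaling holds for their order. Pdap1 scored −1.38 and −1.14 in double-null and 1.47 and 1.25 in pRb-null skin (−2.62 ± 0.17, adjusted p = 0.0428), and its other probe set was at −2.29. Shisa2, an inhibitor of Wnt and FGF receptor maturation, scored −1.09 and −1.34 in double-null and 1.25 and 1.37 in pRb-null skin (−2.53 ± 0.13), with −1.29 in its other probe set. The golgin Golga4 (−2.59 ± 0.17) and the nuclear matrix protein Safb2 (−2.53 ± 0.17) fell with all other probe sets on the same side. The splicing factor subunit Sf3a2 (−2.61 ± 0.20) and Crim1 (−2.58 ± 0.12) each had 1 other probe set, at 0.98 and 0.48, of opposite sign. Polr3a, the largest subunit of RNA polymerase III, differed by −2.48 ± 0.14, and the imprinted gene Peg3 by −2.48 ± 0.17 with 1 of 2 other probe sets opposite. Mis12, Retnlb, Calhm5 and Rhog completed this group.

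Agreement between probe sets of a gene gave a second reading. Of 4958 genes with 2 or more probe sets, 2356 (47.5%) had the same sign in all of them, and 48 (0.968%) were higher and 111 (2.24%) lower nominally in all. Of the 81 called genes, 40 had 1 probe set, 29 had others that all agreed in sign and 12 had at least 1 of opposite sign. Ccn1, a matricellular protein and target of YAP, was higher by both probe sets. The called one scored 1.75 and 1.46 in double-null and −0.46 and −0.71 in pRb-null skin (2.19 ± 0.15, adjusted p = 0.0442), and the other differed by 1.93 ± 0.23. Gclc, the catalytic subunit of glutathione synthesis, was lower by both. The called one scored −1.41 and −1.13 in double-null and 0.91 and 1.08 in pRb-null skin (−2.26 ± 0.14, adjusted p = 0.0411), and the other differed by −2.09 ± 0.30. Further genes lower by all probe sets were the adhesion receptor Adgrg1, the plakin Plec, the enoyl reductase Tecr and the centromere protein Cenpb, and further ones higher were the formin Diaph1 and the saposin precursor Psap.

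The last comparison set the difference made by p53 loss where pRb was lost (double-null minus pRb-null) beside the one where pRb was present (p53-null minus control), and tested the difference between them. These 2 comparisons share no array. Of 22690 probe sets 0 (0%) passed, with 1013 (4.46%) nominally higher and 1364 (6.01%) nominally lower, and the moderated test also called 0, with 984 and 1267. The smallest p, 0.0957 after adjustment, belonged to Usp19, a deubiquitinase named after its values were seen, with a difference of 1.64 ± 0.07 where pRb was lost and −1.02 ± 0.07 where it was present. Its other probe sets differed by 1.46 and −1.90 where pRb was lost.

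Of the 53 lower called probe sets 49 had the same sign where pRb was present, against 64.7% of all lower probe sets, and of the 29 higher ones 23 did, against 57.7% of all higher ones. In the test of the difference 40 of those 49 and 21 of those 23 were nominal. That test shares its spread with the calls, so a small spread favours both. The lower called ones with the opposite sign were Hhip, Safb2, Peg3 and, named after its values were seen, the nucleosome assembly protein Nap1l1. Hhip scored −1.55 and −1.46 in double-null and 0.70 and 0.57 in pRb-null skin, but 1.04 and 0.76 in p53-null and 0.01 and −0.07 in control skin (difference of the differences −3.06 ± 0.17, adjusted p = 0.0957). Krtap16-3, in contrast, scored −0.89 and −0.93 in p53-null and 1.20 and 1.27 in control skin, so that its scores were low in both groups without p53.

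**Figure D4:**
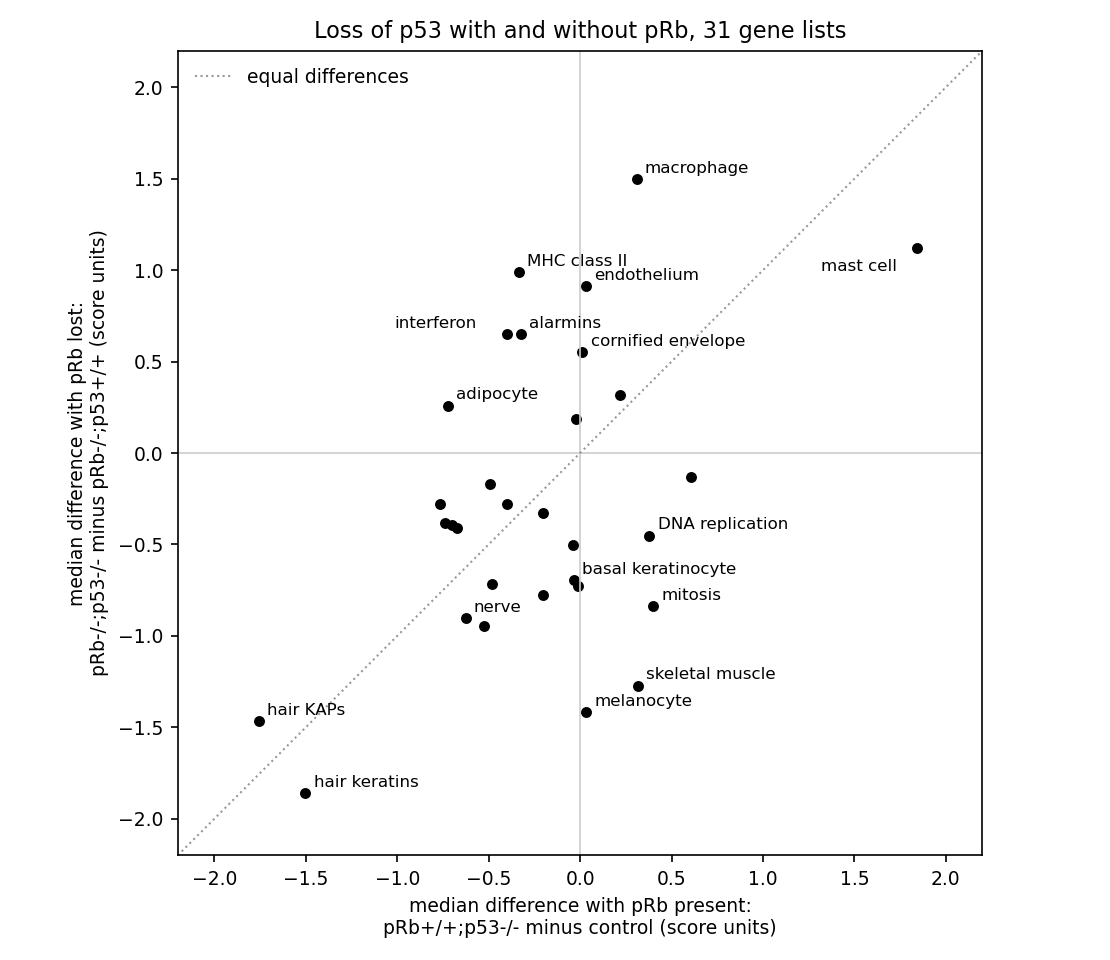
Median difference of 31 gene lists in score units, with double-null minus pRb-null skin on the y axis and p53-null minus control skin on the x axis, and a dotted line where both are equal. The hair keratin lists lie at the lower left, mast cell markers at the upper right, and melanocyte, muscle and mitosis lists below 0 on the y axis with 0.03 to 0.40 on the x axis.

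The hair lists were low under p53 loss on either background. The hair keratins had a median of −1.86 where pRb was lost and −1.50 where it was present, and the keratin-associated proteins −1.47 and −1.76. Of the 28 probe sets of the keratin-associated proteins 11 were nominally higher and 0 lower in the test of the difference. Of the 22 probe sets of the hair keratins 6 were nominally lower and 0 higher in it. Mast cell markers were high on both backgrounds, at 1.12 and 1.84, with 4 of 18 nominally lower and 0 higher in that test. Cma1 scored 0.47 and 0.55 in double-null and −0.95 and −1.29 in pRb-null skin, and 1.10 and 1.38 in p53-null and −0.61 and −0.66 in control skin.

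Other lists had unlike medians on the 2 backgrounds. The mitosis list had a median of −0.84 where pRb was lost and 0.40 where it was present, and in the test of the difference 24 of 97 probe sets were nominally lower and 1 higher. Skeletal muscle markers stood at −1.27 and 0.31, with 16 of 59 lower and 1 higher in that test. Melanocyte markers stood at −1.42 and 0.03, with 9 of 26 lower and 0 higher. Dct scored 0.74 and 0.73 in p53-null and 0.43 and 0.43 in control skin, so that the double-null arrays alone were low. Macrophage genes stood at 1.50 and 0.31, with 12 of 51 higher and 1 lower, interferon genes at 0.65 and −0.40, with 11 of 48 higher and 0 lower, and adipocyte markers at 0.26 and −0.72, with 14 of 37 higher and 1 lower. None of these probe sets passed the test of the difference after adjustment. The control probe sets on the array differed too, with a median of 0.07 where pRb was lost and 0.87 where it was present, and 12 of 64 lower and 1 higher in the test of the difference. Their mean score was −0.04 and 0.61 in the p53-null and −0.69 and −0.37 in the control arrays, and their part in these counts was not tested.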

How the data were processed

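Skin RNA was measured on 8 Affymetrix arrays, 2 per genotype, and RMA (no version given) is named in the submitters' processing notes. The deposited values are standardized scores per probe set, as the values show: each has mean 0 and SD 1 over the arrays, within −2.434 to 2.4479. The sources used here do not state whether logarithms were taken first. Depth does not apply to arrays, and their number limits the precision.

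A linear model in limma 3.58.1 (R 4.3.3) covered all 22690 probe sets, with 1 mean per genotype and 4 residual degrees of freedom from all 8 arrays, without moderation of the variances. Scores of different probe sets have unlike units, and a t statistic without moderation does not depend on that scale. P-values were two-sided and adjusted by the Benjamini-Hochberg method over all probe sets, with a threshold of 0.05. The difference between the effects of p53 loss with and without pRb was a contrast in the same fit. All p-values and standard errors printed come from this fit, and the analysis was tested on simulated data. Tables and figures used Python 3.11.15, pandas 2.3.3 and matplotlib 3.10.9.

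A single gene symbol was given to 20393 probe sets by the platform annotation, several to 691 and none to 1606. Named were Rb1, the 12 probe sets that rose and the 12 that fell most among those past the threshold with groups that did not overlap, up to 15 genes in each direction whose probe sets all agreed, up to 4 genes with the smallest p in each list, and members of the p53 arrest, pocket protein and E2F lists as needed. Other genes are marked as named after their values were seen. The comparison and the gene lists were chosen with earlier results of these data known. Arrays of the 2 groups share replicate numbers, but the deviations of the arrays numbered 1 from their group means correlated at −0.163 across probe sets, so the numbers were not taken to pair arrays. Alternatives changed the arrays in the fit, the moderation, the block, the scaling, the array weights and the number of probe sets per gene, and left out each array in turn. Trp53 was not analysed here.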

Additional observations from a re-analysis of the deposited data

How the results depend on the processing

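The 92 calls between double-null and pRb-null skin depended on the fit. There were 71 with array medians set to 0 and 97 with 1 probe set per gene, but 25 with array weights, 1 with quantile normalization and 0 with the 4 arrays alone, with the moderated test and with the replicate block. Leaving out 1 array left between 0 and 6 calls, with 6 without either control array, 1 without pRb-null array 1 or without either double-null array, and 0 without pRb-null array 2 or without either p53-null array. The nominal counts were 1055 higher and 1632 lower with the 4 arrays alone, 2029 and 2895 with the moderated test, and 1526 and 2038 with the block. A crossed pairing of the 4 arrays (788 and 1172 nominal) and the moderated test on them (1450 and 2113), both chosen after seeing the data, called 0. The difference between the effects of p53 loss with and without pRb had 0 calls in every alternative run, except that 1 appeared without either control or either double-null array, so leaving out 1 array gave 0 to 1. The fit on the 4 arrays alone cannot give that difference. The causes were not tested. Leaving out 1 array also left 3 residual degrees of freedom in place of 4. Of 3339 values of the 201 named probe sets under alternatives, 713 lost the call and 16 gained it. Alternatives that changed only the spread keep each difference, so they could not change a direction. Groups that do not overlap also keep their sign when 1 array is left out. Where groups overlapped the sign could change. A probe set of Mdm2 scored 0.49 and −0.33 in double-null and 2.05 and −0.36 in pRb-null skin. Its difference of −0.76 turns positive without pRb-null array 1. Of 32 lists, 25 kept the sign of their median in all alternatives, and the exceptions were p53 arrest, p53 apoptosis, pocket proteins and E2F, lipid barrier, fibroblast, sebaceous and sex-linked genes.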
